A study of Mus musculus with 6 samples.

Results

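The 2 RNA-seq libraries labelled shPkm2 were compared directly with the 2 labelled shPkm1, which makes 4 of the 6 libraries of a study of mouse C2C12 cells. The 4 were taken by the hairpin named in their sample titles. The other 2 carried a scrambled hairpin (shScr) and entered the estimate of spread, but not the fold changes. C2C12 is an immortalised line of mouse myoblasts. The groups carried stably introduced short hairpin RNAs: a non-targeting one in shScr (genotype label WT), one against the Pkm1 splice form of pyruvate kinase in shPkm1 (Pkm1 Knockdown), and one against the Pkm2 splice form in shPkm2 (Pkm2 Knockdown). All were kept for 48 h in a medium with horse serum, insulin, transferrin and selenium that makes myoblasts differentiate. Hairpin sequences, and whether each line was a clone or a pool, are not given in the sources used here. Nothing says that the libraries of a group came from separate cultures, so the p-values measure only the spread between these libraries, which may be technical.

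Myoblasts that differentiate leave the cell cycle, switch on the transcription factor Myog downstream of Myod1, fuse through the membrane proteins myomaker and myomixer, and then build sarcomeres. Pyruvate kinase makes pyruvate in the last step of glycolysis. Its gene Pkm gives the Pkm1 form, typical of adult muscle, or the Pkm2 form, typical of dividing cells, by the choice between a pair of exons. The study used a hairpin named for each form in differentiating myoblasts.

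Libraries held between 18216896 and 19796036 estimated counts. Levels below are CPM, read counts scaled to a common normalised library size, with shPkm1 first where pairs of values are joined by "against", and a positive log2 fold change means higher in the libraries labelled shPkm2. Replicates correlated across genes at r = 0.994 in each hairpin group and 0.988 in shScr, against 0.901 to 0.905 between libraries of the 2 hairpin groups. Genes are no independent points, so these correlations only describe the libraries. The chi-square per degree of freedom between the libraries of a group, which is near 1 for sampling noise alone, was 5.94 in shPkm1, 6.66 in shPkm2 and 30.8 in shScr.

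Pkm was examined first, since it checks the labels. The gene stood at 1998 and 2186 CPM in shPkm1, 3658 and 3794 CPM in the libraries labelled shPkm2 and 3019 and 3473 CPM in shScr. Both libraries labelled shPkm2 lay above both shPkm1 libraries, which is a log2 fold change of 0.83 ± 0.134 (SE, as in all such values below, adjusted p 0.000159, edgeR's quasi-likelihood test with Benjamini-Hochberg adjustment over all genes, which gives every adjusted p of a gene below). The Pkm1 isoform was at 315 and 299.8 CPM in shPkm1 and 313 and 334 CPM in the libraries labelled shPkm2, against 980.1 and 958 CPM in shScr. All 4 hairpin libraries lay below both shScr libraries, and no difference between the hairpin groups passed the test (0.08 ± 0.0747, adjusted p 0.690 over all transcripts). The Pkm2 isoform was at 1656 and 1895 CPM in shPkm1 and at 3330.3 and 3452 CPM in the libraries labelled shPkm2, against 1927 and 2468 CPM in shScr. The form named by the shPkm2 label was thus higher under that label than under the other (0.93 ± 0.162, adjusted p 0.0390). That call was lost when any hairpin library was left out (adjusted p 0.134 to 0.196) and with a replicate block (0.94, adjusted p 0.0612). The Pkm2 isoform made up 82.2% and 85.6% of the Pkm counts in shPkm1. The libraries labelled shPkm2 had 90.7% and 89.9%, and shScr 65.4% and 71.1%. How the authors' counting divided reads shared by the isoforms could change these shares. Since the named isoform was not lower there, that group is called by the label of its libraries throughout.

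Of 12643 genes tested, 6703 differed between the hairpin groups at an adjusted p under 0.05, which is 53% of the genes. In the libraries labelled shPkm2, 3246 genes (25.7%) were higher and 3457 (27.3%) lower. Large changes were mostly falls: 499 genes (3.95%) were called and at least 8-fold lower and 89 (0.704%) at least 8-fold higher, while at least 2-fold changes numbered 1452 (11.5%) lower and 894 (7.07%) higher. The CPM values of the groups did not overlap for 10085 genes (79.8%). The median log2 fold change of all tested genes was 0.0046. Scaling to library totals alone moved that median to 0.135 and the higher share of the calls from 48.4% to 61.3%, with 6979 calls, so changes smaller than this shift depend on the scaling. With this background, single members of a list count for little, and each list is described by its calls in each direction and its median.

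**Figure D1:**
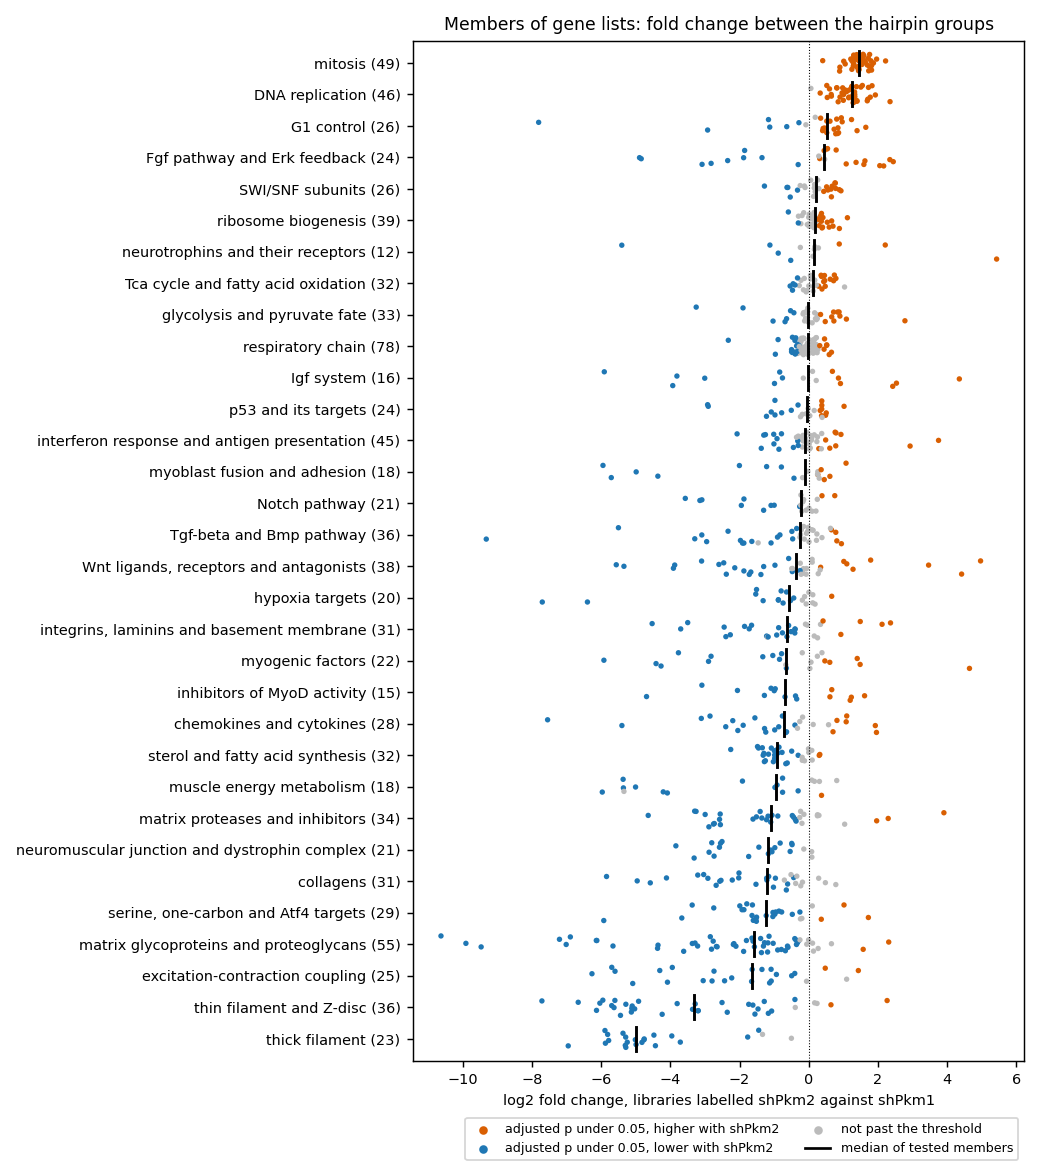
Log2 fold change of every tested member (points, with the number tested in brackets) of 32 gene lists between the libraries labelled shPkm2 and shPkm1, ordered by the list median (black bar). Sarcomere lists lie furthest to the left, with medians of -4.99 and -3.32, and the DNA replication and mitosis lists furthest to the right, with medians of 1.24 and 1.44.

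The muscle programme was much lower in the libraries labelled shPkm2, most of all in the sarcomere. Myog, the factor that starts terminal differentiation, stood at 1097 and 1162 CPM in shPkm1 and 49.2 and 56.9 CPM in the libraries labelled shPkm2, against 2336 and 1988 CPM in shScr. The groups were far apart and the shPkm1 level was the intermediate one of the 3 (-4.41 ± 0.147, adjusted p 6.9e-11). Myod1, the factor that commits cells to the muscle lineage, was at 208 and 214 CPM in shPkm1 and 78.2 and 89.7 CPM in the libraries labelled shPkm2 (-1.33 ± 0.107, adjusted p 2.71e-07). Its fall was smaller than that of Myog, and again the groups did not overlap. Myf5, the related factor of early, dividing myoblasts, was the reverse: it was at 22.9 and 21.0 CPM in shPkm1, 62.4 and 60.5 CPM in the libraries labelled shPkm2 and 18.2 and 18.7 CPM in shScr (1.48 ± 0.103, adjusted p 6.34e-08). Of 22 tested myogenic factors 11 fell and 5 rose, with a median of -0.66. Other falls were in Smyd1, a muscle methyltransferase needed for myofibrils (-4.27), and Rbm24, a muscle splicing factor (-5.92, or -5.14 and -7.76 without the first or the second library labelled shPkm2). Other rises were in Eya1, a partner of homeobox factors in muscle progenitors (1.40), and Tcf3, the E protein partner of Myod1 (0.61).

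Among inhibitors of MyoD the Id genes rose and most others fell. Id1 and Id3 hold E proteins away from Myod1. Id3 was at 57.1 and 69.9 CPM in shPkm1 and 142 and 149 CPM in the libraries labelled shPkm2 (1.20 ± 0.184, adjusted p 0.000111), and Id1 at 18.6 and 20.4 CPM against 43.2 and 48.4 CPM (1.23). Both were lowest in shScr, with 19.8 and 35.7 CPM for Id3 and 10.8 and 14.8 CPM for Id1. Msc, a repressor that binds the same E-boxes as Myod1, also rose (1.61), from 0.799 and 0.607 to 2.12 and 2.19 CPM. Mdfi, a protein that keeps myogenic factors from DNA, fell (-4.69), as did the Notch target Heyl (-3.09), Sox8 (-2.06) and Snai1 (-1.28). The Mdfi value was -3.96 without the first library labelled shPkm2 and -6.22 without the second. In all, 10 of 15 fell and 5 rose (median -0.69).

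Fusion genes moved in both directions, and the muscle-specific ones fell furthest. Mymk, which encodes myomaker, was at 918 and 938 CPM in shPkm1, 13.9 and 16.2 CPM in the libraries labelled shPkm2 and 2652 and 2280.3 CPM in shScr (-5.95 ± 0.159, adjusted p 1.62e-11). Mymx, which encodes myomixer, was at 106 and 111 CPM against 2.73 and 4.10 CPM (-4.99 ± 0.178, adjusted p 1.28e-10). Both muscle-specific fusogens were thus far lower in both libraries labelled shPkm2 than in any other library, but still detected. Some general adhesion and actin regulators of the list went the other way: Dock5 (1.08), Neo1 (0.61) and Dock1 (0.45) rose. Itgb1, the common beta chain of integrins, did not pass the threshold (0.25, adjusted p 0.0633, and 0.0124 with library totals alone). Of 18 tested members 8 fell and 5 rose, with a median of -0.10, or 0.03 with library totals alone. That is 44.4% lower and 27.8% higher, against 27.3% and 25.7% of all genes.

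Of the thick filament genes, 21 of 23 fell and 0 rose (median -4.99), and 19 of the falls were at least 8-fold. Myh1, a fast myosin heavy chain, was at 70.3 and 83.6 CPM in shPkm1 and 0.753 and 0.477 CPM in the libraries labelled shPkm2 (-6.95 ± 0.210, adjusted p 3.37e-11). Mylpf, the fast regulatory light chain and the member with the highest TPM (a level per transcript length), was at 1553 and 1769.6 CPM against 27.1 and 33.3 CPM (-5.78). Mybph, a myosin-binding protein, was at 751 and 881 CPM against 13.4 and 14.1 CPM (-5.89). No library labelled shPkm2 came near any shPkm1 library for these genes, and shScr was higher still, at 7613 and 4865 CPM for Mylpf. Of the thin filament and Z-disc genes 31 of 36 fell and 2 rose (median -3.32). Acta1, the skeletal actin, was at 3956 and 4637 CPM in shPkm1, 60.6 and 61.9 CPM in the libraries labelled shPkm2 and 16849 and 10369 CPM in shScr (-6.13 ± 0.247, adjusted p 3.78e-10). Csrp3, the muscle LIM protein of the Z-disc, fell by more (-7.71), with 3 and 2 counts left, and so did the slow troponin I gene Tnni1 (-6.66). The risen members were Tpm3 (0.64), a tropomyosin that non-muscle cells also make, and Xirp2 (2.26), at 0.745 and 0.860 CPM against 4.57 and 3.20 CPM. In bulk libraries such as these, fewer muscle cells and less RNA of these genes per cell cannot be told apart.

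Lists for the later apparatus of the muscle fibre fell less far. Of 25 excitation-contraction coupling genes 21 fell and 2 rose (median -1.65). Casq2, a calcium store of the sarcoplasmic reticulum, was at 167 and 165 CPM against 3.25 and 3.15 CPM (-5.69), and Cacna1s, the voltage sensor, at 47.2 and 54.4 CPM against 0.989 and 1.10 CPM (-5.60). Trdn, the reticulum protein triadin, was an exception, at 12.03 and 9.66 CPM in shPkm1, 33.2 and 25.3 CPM in the libraries labelled shPkm2 and 78.2 and 61.9 CPM in shScr (1.43 ± 0.166, adjusted p 9.01e-06). Of 21 genes of the neuromuscular junction and dystrophin complex 18 fell and 0 rose (median -1.17). They included the acetylcholine receptor subunits Chrng (-3.31) and Chrna1 (-0.98), the esterase Ache (-2.88) and dystroglycan, Dag1 (-1.17). Muscle energy genes fell in 12 of 18 cases, with 1 rise (median -0.95), among them myoglobin, Mb (-5.97), the muscle creatine kinase Ckm (-5.36) and Pgam2, the muscle phosphoglycerate mutase (-5.36). Slc25a4, the muscle ADP/ATP carrier, differed by 0.16 (adjusted p 0.198, and 0.0243 with library totals alone).

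Cell cycle genes were higher in the libraries labelled shPkm2. All 49 mitosis genes rose (median 1.44), and 46 of them at least 2-fold. Cdc20, the activator of the anaphase-promoting complex, was at 40.5 and 48.3 CPM in shPkm1, 208 and 206 CPM in the libraries labelled shPkm2 and 36.6 and 47.9 CPM in shScr (2.22 ± 0.131, adjusted p 1.45e-08). For this gene the shPkm1 and shScr values overlapped and only the libraries labelled shPkm2 stood apart. Ube2c, the ubiquitin carrier of the same complex, was at 62.7 and 73.5 CPM against 261 and 236 CPM (1.87). Kif2c, a kinesin that takes microtubules apart at kinetochores, was at 28.9 and 33.4 CPM against 122 and 121 CPM (1.96), and securin, Pttg1, at 35.5 and 33.6 CPM against 96.8 and 111 CPM (1.59). Mki67, a common marker of dividing cells, was at 203 and 206 CPM against 613 and 501 CPM and at 67.7 and 81.0 CPM in shScr (1.44 ± 0.123, adjusted p 4.76e-07). Here shPkm1 stood between the other groups.

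DNA replication genes rose in 45 of 46 cases and fell in 0 (median 1.24). The largest rise was in Orc1, a subunit of the origin recognition complex, at 2.88 and 3.59 CPM in shPkm1 and 17.1 and 15.9 CPM in the libraries labelled shPkm2 (2.35 ± 0.175, adjusted p 1.31e-07). The initiation factor Mcm10 (1.92) and the origin licensing factor Cdc6 (1.83) followed. Pcna, the sliding clamp of the polymerases, was at 84.4 and 78.8 CPM in shPkm1, 191 and 209 CPM in the libraries labelled shPkm2 and 48.3 and 44.6 CPM in shScr (1.29), and Rrm2, a ribonucleotide reductase subunit, at 151 and 153 CPM against 318 and 330.1 CPM (1.09). Of 26 genes of G1 control 18 rose and 6 fell (median 0.52). The risen ones included the cyclins Ccne1 (1.24) and Ccne2 (1.39), the repressor E2f7 (1.65) and the kinase Cdk4 (0.81). The fallen ones included the Cdk inhibitors Cdkn1a and Cdkn1c and the differentiation-associated cyclin Ccnd3 (-1.16). Not all Cdk inhibitors fell: Cdkn2c (0.73) and Cdkn2d (0.46), named here after their values were seen, rose. Cdkn1a, the inhibitor p21 that holds myotubes out of the cycle, was at 2149 and 2047 CPM in shPkm1, 263 and 290.2 CPM in the libraries labelled shPkm2 and 4080.0 and 3679 CPM in shScr (-2.92 ± 0.135, adjusted p 1.26e-09). Cdkn1c, the inhibitor p57, was at 61.1 and 58.4 CPM in shPkm1, 0.377 and 0.143 CPM in the libraries labelled shPkm2 and 17.2 and 6.61 CPM in shScr (-7.80 ± 0.455, adjusted p 1.28e-08, or -8.65 without the first library labelled shPkm2). Both inhibitors were lowest in the libraries labelled shPkm2, but p21 was highest in shScr and p57 in shPkm1.

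**Figure D2:**
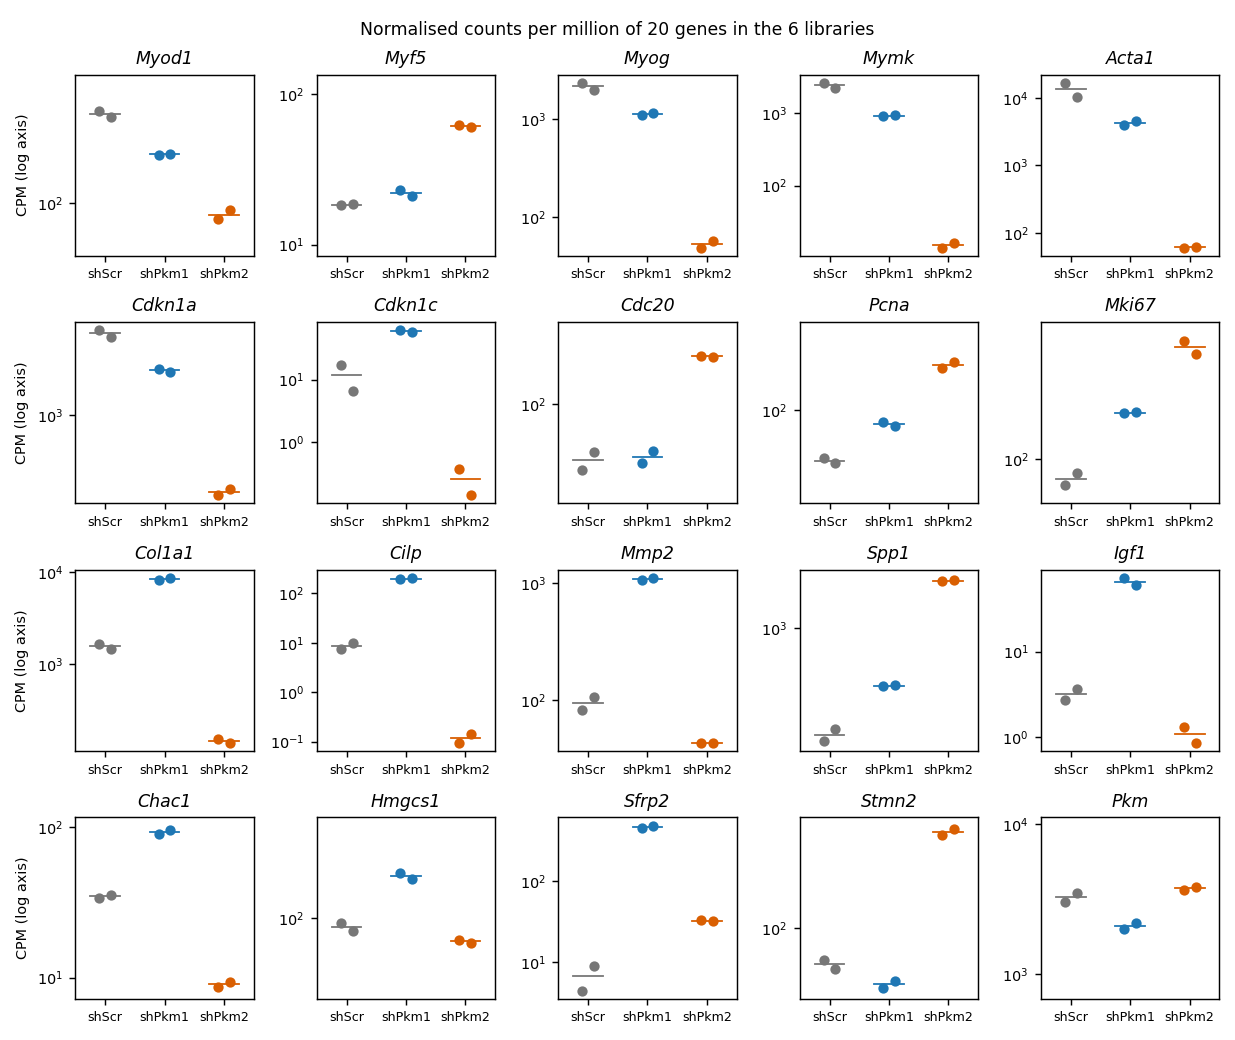
Normalised CPM (log axes) of 20 genes in the 6 libraries, with 1 point per library and a bar at the group mean. Myog, Mymk, Acta1, Cdkn1a and Col1a1 are lowest and Myf5, Cdc20, Pcna, Spp1 and Stmn2 highest in the libraries labelled shPkm2, and Col1a1, Cilp, Mmp2, Igf1 and Sfrp2 are highest in shPkm1.

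Promoters of genes at both ends of the contrast were read from RefSeq (GRCm38.p6), as the 250 bases before the start of the gene, to show the sequence in which muscle factors and cell cycle regulators are known to bind. The motifs searched were CAGCTG, an E-box of the kind that Myod1 and Myog bind and which reads the same on both strands, and TTTGAA, the core of the cell cycle homology region of many mitotic promoters, on both strands (on the reverse strand it reads TTCAAA). Their letters cannot overlap each other. Where a gene had several starts the most upstream was used, and matches are in capitals. The genes are the listed members with the largest changes that have an entry in the table. The 3 fallen muscle genes are Csrp3 (chr7:48848052-48848301, minus strand), Myh1 (chr11:67199852-67200101, plus strand) and Tnni1 (chr1:135799171-135799420, plus strand), and the 3 risen cell cycle genes Orc1 (chr4:108579204-108579453, plus strand), Cdc20 (chr4:118437344-118437593, minus strand) and Kif2c (chr4:117178773-117179022, minus strand).
Csrp3: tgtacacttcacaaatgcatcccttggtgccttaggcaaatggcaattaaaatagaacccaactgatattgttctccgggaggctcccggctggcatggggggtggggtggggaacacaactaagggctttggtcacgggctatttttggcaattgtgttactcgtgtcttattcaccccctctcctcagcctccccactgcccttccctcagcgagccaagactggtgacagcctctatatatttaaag
Myh1: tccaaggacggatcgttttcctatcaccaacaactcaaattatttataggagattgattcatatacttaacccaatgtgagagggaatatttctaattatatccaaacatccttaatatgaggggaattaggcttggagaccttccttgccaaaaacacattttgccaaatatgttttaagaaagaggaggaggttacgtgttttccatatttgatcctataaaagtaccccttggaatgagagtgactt
Tnni1: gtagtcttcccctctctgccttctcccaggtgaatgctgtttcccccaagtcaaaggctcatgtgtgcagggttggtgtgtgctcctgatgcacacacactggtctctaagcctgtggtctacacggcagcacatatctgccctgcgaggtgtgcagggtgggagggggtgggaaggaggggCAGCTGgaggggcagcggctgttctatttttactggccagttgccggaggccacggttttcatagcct
Orc1: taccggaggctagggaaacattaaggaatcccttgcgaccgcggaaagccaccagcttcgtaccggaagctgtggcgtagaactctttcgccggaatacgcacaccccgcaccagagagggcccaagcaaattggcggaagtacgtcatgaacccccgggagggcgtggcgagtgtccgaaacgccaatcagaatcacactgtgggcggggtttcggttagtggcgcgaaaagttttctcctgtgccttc
Cdc20: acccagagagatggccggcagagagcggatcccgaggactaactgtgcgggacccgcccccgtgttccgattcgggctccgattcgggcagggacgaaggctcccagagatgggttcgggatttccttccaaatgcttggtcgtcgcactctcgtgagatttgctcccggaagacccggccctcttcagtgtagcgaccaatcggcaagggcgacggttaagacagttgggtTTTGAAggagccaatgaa
Kif2c: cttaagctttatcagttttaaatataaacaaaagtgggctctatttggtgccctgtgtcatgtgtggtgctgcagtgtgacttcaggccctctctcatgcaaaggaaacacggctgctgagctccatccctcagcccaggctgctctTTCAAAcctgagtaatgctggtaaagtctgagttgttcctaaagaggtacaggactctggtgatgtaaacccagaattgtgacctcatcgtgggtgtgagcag
CAGCTG was found in the Tnni1 window, where it begins 68 bases before the start, and TTTGAA in those of Cdc20 and Kif2c, beginning 18 and 103 bases before it. No match in a window says only that these letters are not there. Of 10043 tested genes with a promoter in the table, 11.7% held CAGCTG and 10.6% held TTTGAA in such a window. CAGCTG was in 30.9% (38) of the promoters of the muscle lists, in 23.3% of 374 promoters of genes called at least 8-fold lower, in 12.5% of 674 promoters of genes called at least 2-fold higher and in 8.97% of 78 promoters of the DNA replication and mitosis lists. TTTGAA was in 25.6% of the promoters of the replication and mitosis lists, in 15.6% of those at least 2-fold higher, in 10.7% of those at least 8-fold lower and in 9.76% of those of the muscle lists. These shares are descriptions, and binding was not measured.

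Genes of the extracellular matrix were the other large group of falls. By their medians the collagen and matrix glycoprotein lists were highest in shPkm1, though this did not hold for every member. Of 31 collagen genes 22 fell and 0 rose (median -1.21). Col1a1, the main chain of fibrillar collagen I, was at 8232 and 8605 CPM in shPkm1, 154 and 139 CPM in the libraries labelled shPkm2 and 1641 and 1468 CPM in shScr (-5.84 ± 0.164, adjusted p 2.37e-11). Col3a1, of the fibrillar collagen III, was at 8909 and 9024 CPM, 2333 and 2100.1 CPM and 2839 and 3368 CPM in the same order (-2.02 ± 0.147, adjusted p 1.1e-07). For both genes shPkm1 was highest and the libraries labelled shPkm2 lowest, with shScr between. Col14a1, a collagen that coats fibrils, fell from 22.7 and 25.1 CPM in shPkm1 to 0.941 and 1.05 CPM in the libraries labelled shPkm2 (-4.58), a level close to the 0.634 and 0.847 CPM of shScr.

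Matrix glycoproteins and proteoglycans fell in 46 of 55 cases and rose in 2 (median -1.57), with 15 falls of at least 8-fold. Cilp, a secreted matrix protein known from cartilage, had the largest fall among the named genes with more than 3 counts in each group: it was at 192 and 203 CPM in shPkm1, 0.0941 and 0.143 CPM in the libraries labelled shPkm2 and 7.54 and 9.72 CPM in shScr (-10.63 ± 0.222, adjusted p 4.52e-12). Adamtsl2, a protein of fibrillin microfibrils, had 478 and 644 counts in shPkm1 against 0 and 1 in the libraries labelled shPkm2. The ratio was 1228, with a 95% counting interval of 220.0 to 48545. Its fitted log2 fold change was -9.07 without the first library labelled shPkm2, and without the second no count was left under that label. Adamtsl2 was not highest in shPkm1: it was at 25.45 and 32.6 CPM there and at 26.1 and 45.5 CPM in shScr. Sparcl1, a matricellular protein, had no count in either library labelled shPkm2 and was at least 65.3-fold lower than in shPkm1, with a floor of 3 counts over the group. These bounds and intervals cover counting error only. Among the abundant members, Bgn (biglycan) was at 6159.6 and 6158 CPM against 665 and 665 CPM (-3.21) and Sparc (osteonectin) at 11993 and 11909 CPM against 2596 and 2681 CPM (-2.18). The exceptions were Spp1, the secreted phosphoprotein osteopontin, at 412 and 419.6 CPM in shPkm1, 2045 and 2079.9 CPM in the libraries labelled shPkm2 and 179 and 213 CPM in shScr (2.31 ± 0.123, adjusted p 5.45e-09), and Loxl2, which cross-links collagen (1.57). Spp1 was highest in both libraries labelled shPkm2.

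Matrix proteases and their inhibitors fell in 23 of 34 cases and rose in 3 (median -1.08). Mmp2, the gelatinase, was at 1066 and 1099 CPM in shPkm1, 43.4 and 43.6 CPM in the libraries labelled shPkm2 and 83.3 and 106 CPM in shScr (-4.64 ± 0.139, adjusted p 3.37e-11). Adamts2, which trims procollagen, fell too (-3.30). Mmp9, another gelatinase (2.29), and Plaur, the urokinase receptor (1.96), rose. The inhibitors Timp1 (-0.20, adjusted p 0.122) and Timp2 (-0.26, adjusted p 0.131) did not pass the threshold, and passed it in a fit of the 4 hairpin libraries alone (adjusted p 0.0478 and 0.0134). Integrins, laminins and basement membrane genes fell in 20 of 31 cases and rose in 5 (median -0.63). The collagen-binding integrin chains Itga1 (-4.53) and Itga11 (-3.50) and the laminin chain Lama4 (-3.70) fell, and so did Itga7, the laminin-binding chain of muscle (-1.22). The chains Itgb3 (1.49), Itgb7 (2.36) and Itgb8 (2.12) rose.

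Many markers of matrix-producing cells were also lower in the libraries labelled shPkm2, but not all of them were highest in shPkm1. Of 6 tested fibroblast and fibro-adipogenic markers 5 were lower in the libraries labelled shPkm2, with summed levels of 416 and 377 CPM in shPkm1, 171 and 200.4 CPM in the libraries labelled shPkm2 and 272 and 277 CPM in shScr. Ly6a held most of the sum in shScr and under the shPkm2 label, at 162 and 144.6 CPM against 106 and 134 CPM and 236 and 234 CPM in shScr (-0.35, adjusted p 0.0226). Its call was lost without the first shPkm1 library (adjusted p 0.177), without the first library labelled shPkm2 (0.282) and with library totals alone (0.137). Without Ly6a, a count made after the values were seen, the sums were 254 and 233 CPM in shPkm1, 64.6 and 66.4 CPM under the shPkm2 label and 35.6 and 43.5 CPM in shScr, so that shPkm1 stayed highest and shScr was lowest. Cd34 was at 165 and 147 CPM against 18.5 and 19.9 CPM (-3.02) and decorin, Dcn, at 46.2 and 41.1 CPM against 9.13 and 11.2 CPM (-2.10). The defining marker Pdgfra, at 29.9 and 31.3 CPM in shPkm1 and 34.6 and 33.8 CPM in the libraries labelled shPkm2, did not pass the test (0.16, adjusted p 0.287), while Dpp4 and Lum had at most 5 counts in any of the 4 hairpin libraries. Of the tendon markers Fmod, fibromodulin, fell (-6.89, from 774 and 765 to 6.97 and 6.01 CPM) and Scx fell (-0.87), Mkx rose (0.72), and Tnmd and Thbs4 had at most 1 count in any library. Fmod was at 42.8 and 31.2 CPM in shScr, below shPkm1. Scx was highest in shScr, at 196 and 207 CPM against 97.9 and 125 CPM in shPkm1. All 6 tested smooth muscle and myofibroblast markers fell, from Lmod1 (-4.29) and Tagln (-2.36) to Smtn (-0.65), while Myocd, the defining factor of smooth muscle, had at most 1 count. Acta2, by far the most abundant, was highest in shScr, at 18118 and 11997 CPM against 6704 and 7394 CPM in shPkm1. Tagln, Cnn1 and Actg2 were highest in shPkm1, and for Lmod1 and Smtn the shPkm1 and shScr values overlapped. The part of such cells in the matrix result was not tested.

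Signalling genes changed in both directions. In the Wnt list 18 of 38 fell and 8 rose (median -0.36). Sfrp2, a decoy that binds Wnt proteins, was at 461 and 489 CPM in shPkm1, 32.9 and 31.9 CPM in the libraries labelled shPkm2 and 4.44 and 8.98 CPM in shScr (-3.87 ± 0.179, adjusted p 1.23e-09). Its relative Sfrp1 was at 10.5 and 10.2 CPM against 0.235 and 0.191 CPM (-5.56) and had no count in shScr. Wnt7b, a ligand, was the reverse, at 0.479 and 0.506 CPM in shPkm1, 15.4 and 15.7 CPM in the libraries labelled shPkm2 and 6.28 and 9.55 CPM in shScr (4.96 ± 0.273, adjusted p 7.04e-09). The nuclear effector Lef1 also rose (1.79), and the receptor Fzd2 differed by -0.16 (adjusted p 0.21).

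In the Notch pathway 9 of 21 fell and 2 rose (median -0.23). The ligand Dll1 was at 46.4 and 46.0 CPM against 5.51 and 4.91 CPM (-3.15), and the targets Heyl (-3.09), Nrarp (-3.57, or -4.23 without the first library labelled shPkm2) and Hes1 (-1.09) fell with it, while the ligand Jag2 rose (0.75). In the Tgf-beta and Bmp pathway 16 of 36 fell and 4 rose (median -0.25). Follistatin, Fst, which binds activins and myostatin and favours muscle growth, was at 117 and 107 CPM in shPkm1, 2.26 and 2.67 CPM in the libraries labelled shPkm2 and 112 and 122.5 CPM in shScr (-5.50 ± 0.141, adjusted p 1.42e-11). The shPkm1 and shScr values overlapped, and both libraries labelled shPkm2 lay far below them. The Bmp antagonist Chrdl1 had no count in the libraries labelled shPkm2 and none in shScr, and was at least 58.7-fold lower than in shPkm1. Another Bmp antagonist, Grem1, rose (0.78), and the ligand Tgfb1 differed by -0.22 (adjusted p 0.135, and 0.0281 in a fit of the 4 hairpin libraries alone).

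Growth factor systems were divided. Igf1, a growth factor for muscle, was at 72.3 and 59.4 CPM in shPkm1, 1.32 and 0.859 CPM in the libraries labelled shPkm2 and 2.73 and 3.62 CPM in shScr (-5.91 ± 0.198, adjusted p 6.9e-11). The binding proteins Igfbp3 (-3.81) and Igfbp4 (-3.93) fell with it and Igfbp2 rose (0.92). The RNA-binding proteins Igf2bp3 (4.35) and Igf2bp2 (2.43) rose too, and the whole list had 6 rises and 7 falls of 16 (median -0.02, -0.46 without genes of chromosomes 1 and 10, described below, 0.11 with library totals alone, and 0.03 and 0.04 without the first shPkm1 or the second library labelled shPkm2). Rises made up 37.5% and falls 43.75% of the Igf list, against 25.7% and 27.3% of all genes. The Fgf and Erk list had the highest share of rises among the signalling lists, 13 of 24, with 9 falls (median 0.45). The Erk-induced genes Dusp4 (2.16) and Etv4 (2.05) rose, whereas the receptor Fgfr4 (-4.84), the feedback inhibitor Spry1 (-3.08) and the hormone Fgf21 (-4.89, from 77.5 and 85.8 to 2.59 and 2.91 CPM) fell.

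Among 12 neurotrophins and their receptors 3 rose and 4 fell (median 0.14, or 0.27 with library totals alone and 0.05 without the first library labelled shPkm2), the falls numbering 1 without the first shPkm1 library and 2 without any other hairpin library. Ngfr, the receptor p75, had 1 and 6 counts in shPkm1 against 183 and 158 in the libraries labelled shPkm2 (5.43 ± 0.398, or 4.70 and 7.08 without the first or second shPkm1 library; adjusted p 1.12e-07). Gfra2, a receptor of the Gdnf family, was the reverse at 40.5 and 36.2 CPM against 0.800 and 1.00 CPM (-5.40). Markers of neural cells were higher in the same libraries: of 5 tested, 4 rose and 1 fell, with summed levels of 69.8 and 77.2 CPM in shPkm1, 538 and 574 CPM in the libraries labelled shPkm2 and 97.1 and 117 CPM in shScr. Stmn2, a microtubule regulator of growing axons, was at 40.0 and 44.3 CPM in shPkm1, 414 and 455 CPM in the libraries labelled shPkm2 and 61.1 and 53.4 CPM in shScr (3.37 ± 0.117, adjusted p 1.02e-10). The neurofilaments Nefl, at 2.93 and 2.53 CPM against 57.5 and 55.4 CPM (4.37), and Nefm, at 1.12 and 1.47 CPM against 34.2 and 31.6 CPM (4.66), rose as well, and Map2 fell (-1.38). The defining glial marker Sox10 and the synaptic marker Snap25 had no count in any library, and Elavl4 had at most 1. The part of such cells in the result was not tested.

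Chemokines and cytokines fell in 17 of 28 cases and rose in 6 (median -0.71). Cxcl12, a chemokine of stromal cells, was at 195 and 182 CPM in shPkm1, 24.3 and 27.8 CPM in the libraries labelled shPkm2 and 18.5 and 32.2 CPM in shScr (-2.85 ± 0.183, adjusted p 3.12e-08). Here shPkm1 was the high group, and the same held for Cx3cl1 (-2.05), at 76.8 and 80.4 CPM, 19.3 and 18.7 CPM and 16.8 and 13.1 CPM. The alarmin Il33 (1.08) and the neutrophil chemokine Cxcl1 (1.10) rose. Interferon response and antigen presentation genes had 9 rises and 12 falls of 45, with a median of -0.10 (0.03 with library totals alone). The antiviral neighbours Rsad2, at 0.373 and 0.455 CPM against 3.20 and 3.20 CPM (2.93), and Cmpk2, at 0.320 and 0.303 CPM against 3.91 and 4.63 CPM (3.75), rose but stayed far below their shScr levels of 61.2 and 55.99 CPM for Rsad2 and 38.2 and 31.0 CPM for Cmpk2. The peptide transporter Tap2 (-1.37) and the immunoproteasome subunit Psmb8 (-2.07) fell.

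In metabolism the list of serine, one-carbon and Atf4 target genes and the lipid synthesis list mostly fell, while the energy lists were mixed. Of 29 serine, one-carbon and Atf4 target genes 23 fell and 3 rose (median -1.23). Atf4, the transcription factor of the integrated stress response, was at 499.5 and 502 CPM in shPkm1, 239.7 and 249.6 CPM in the libraries labelled shPkm2 and 378 and 357 CPM in shScr (-1.03 ± 0.101, adjusted p 1.74e-06). Its targets Chac1, a glutathione-degrading enzyme, at 89.8 and 96.3 CPM, 8.71 and 9.30 CPM and 34.0 and 35.4 CPM (-3.37), and Trib3, a pseudokinase, at 68.3 and 75.8 CPM, 5.46 and 5.87 CPM and 16.8 and 15.3 CPM (-3.67), fell further. All 3 genes were highest in shPkm1 and lowest in the libraries labelled shPkm2. The folate enzymes Shmt1 (1.72) and Mthfd1 (1.02), both cytosolic, rose. Sterol and fatty acid synthesis fell in 23 of 32 cases and rose in 2 (median -0.91). Hmgcs1, an early enzyme of sterol synthesis, was at 201 and 184 CPM in shPkm1, 72.3 and 68.1 CPM in the libraries labelled shPkm2 and 93.3 and 82.3 CPM in shScr (-1.45 ± 0.104, adjusted p 9.04e-08), and Fdps (-1.34), Acss2 (-1.48) and Scd2 (-0.49) also fell.

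Glycolysis and pyruvate fate genes had 10 rises and 7 falls of 33 (median -0.01, or 0.12 with library totals alone, 0.03 with a mean of at least 50 counts and 0.02 without the first library labelled shPkm2). Its most abundant members, Gapdh (-0.07, adjusted p 0.762) and Eno1 (-0.01, adjusted p 0.95), did not pass the threshold. Pdk4, a kinase that closes pyruvate dehydrogenase, was at 5.91 and 5.92 CPM in shPkm1, 42.0 and 39.2 CPM in the libraries labelled shPkm2 and 11.9 and 13.2 CPM in shScr (2.78 ± 0.126, adjusted p 1.06e-09), and the related Pdk2 fell (-1.03). Of 78 respiratory chain genes 7 rose and 16 fell (median -0.02, or 0.11 with library totals alone, and from -0.15 without the second library labelled shPkm2 to 0.06 without the first), the falls numbering 10 and 4 without the first or second shPkm1 library, 5 without the first library labelled shPkm2 and 9 with library totals alone. The respiratory chain shares, 8.97% higher and 20.5% lower, were under the 25.7% and 27.3% of all genes. Ndufb7 (-0.97) and Ndufv3 (-0.89) fell and Ndufa4 (0.66) and Ndufa12 (0.59) rose, all historically named as complex I subunits. In the Tca cycle and fatty acid oxidation list 12 of 32 rose and 5 fell (median 0.13), with 7 rises without the first shPkm1 library and 7 without the second library labelled shPkm2. Citrate synthase, Cs (0.72), and the medium-chain acyl-CoA dehydrogenase Acadm (0.78) rose, and both chains of the trifunctional protein, Hadha (-0.54) and Hadhb (-0.47), fell. Hypoxia targets fell in 12 of 20 cases with 1 rise (median -0.58). Car9, a carbonic anhydrase at the cell surface, was at 45.0 and 46.4 CPM in shPkm1, 0.235 and 0.191 CPM in the libraries labelled shPkm2 and 4.44 and 1.30 CPM in shScr (-7.70), while the glucose transporter Slc2a1 rose (0.66).

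The p53 list had 8 rises and 9 falls of 24 (median -0.05, or 0.08 with library totals alone and 0.02 without the second shPkm1 library). These are 33.3% and 37.5%, against 25.7% and 27.3% of all genes. Besides Cdkn1a, the stress gene Gadd45a (-1.22) and the cell death gene Pmaip1 (-2.90) fell, and Mdm2, which degrades p53, rose (0.49). Of 26 SWI/SNF subunits 11 rose and 5 fell (median 0.22). Actl6a, the actin-like subunit of proliferating cells, rose from 40.3 and 39.6 to 75.6 and 76.6 CPM (0.93), and the ATPase Smarca2 fell from 47.7 and 46.7 to 20.1 and 18.7 CPM (-1.28). In the ribosome biogenesis list 15 of 39 rose and 2 fell (median 0.17), with 7 rises without the first shPkm1 library and 8 and 9 without the first or second library labelled shPkm2. Nucleophosmin, Npm1, was at 585 and 540.0 CPM against 1025 and 1053 CPM (0.88), and Utp20, of the small subunit processome, had the largest rise of the list (1.12).

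Several of the largest changes fell outside these lists. Among the largest falls were Scara5, a scavenger receptor, with 519 and 572 counts in shPkm1 against 1 and 1 in the libraries labelled shPkm2 (ratio 597, 95% counting interval 165 to 4936), and Ltc4s, leukotriene C4 synthase, with 298 and 389 against 1 and 0 (ratio 752, 135 to 29741). The fitted log2 fold change of Ltc4s was -8.38 without the second library labelled shPkm2, and without the first no count was left under that label. Clec11a, a secreted growth factor, and Adgrg2, an adhesion receptor, had no count in either library labelled shPkm2 and were at least 78.1-fold and at least 77.7-fold lower. Fndc5, the precursor of the myokine irisin, was at 49.8 and 47.7 CPM in shPkm1, 0.282 and 0.143 CPM in the libraries labelled shPkm2 and 102 and 70.0 CPM in shScr (-7.79). Fndc5 was thus high in shScr as well, whereas Clec11a had at most 1 count there. Among genes with a mean of 50 counts or more and groups that did not overlap, predicted and clone names left out, the largest rise was in Prl2c3, a proliferin, at 0.0532 and 0.303 CPM against 10.5 and 12.1 CPM (5.91 ± 0.378, or 5.18 and 7.56 without the first or second shPkm1 library). It belongs to a family of near-identical genes, so its counts are uncertain. The architectural chromatin protein Hmga1 was at 2.82 and 4.40 CPM in shPkm1, 59.2 and 55.5 CPM in the libraries labelled shPkm2 and 16.9 and 15.2 CPM in shScr (3.98 ± 0.163, adjusted p 4.07e-10). The homeobox factor Dlx3 (4.20), the nuclear receptor Rorb (4.20), the repressor Klf12 (4.24) and the guanine exchange factor Dock8 (4.42) rose by similar amounts.

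The levels of the lists in shScr, which is shared by both hairpin groups when each is set against it, show which group lay away from the control. Relative to the shScr mean, the median thick filament gene was at -1.92 and -1.72 on the log2 scale in shPkm1 and at -6.03 and -6.11 in the libraries labelled shPkm2. Mitosis genes were at 0.88 and 0.90 in shPkm1, against 2.36 and 2.36 in the libraries labelled shPkm2. For these lists both hairpin groups lay on the same side of shScr, with the libraries labelled shPkm2 further away. Collagens and matrix glycoproteins were different: collagens were at 1.33 and 1.28 in shPkm1 and at -0.14 and -0.27 in the libraries labelled shPkm2, and matrix glycoproteins at 1.40 and 1.48 against 0.12 and 0.02. For these lists shPkm1 lay further from shScr than the libraries labelled shPkm2 did. Matrix proteases lay on opposite sides of shScr, at 0.60 and 0.58 in shPkm1 and at -0.45 and -0.55 under the shPkm2 label, and so did integrins and laminins, at 0.25 and 0.42 and at -0.23 and -0.36. Sterol synthesis genes were at 0.64 and 0.68 in shPkm1 and -0.11 and -0.13 in the libraries labelled shPkm2. Serine and Atf4 target genes also lay on opposite sides, at 0.60 and 0.62 and at -0.62 and -0.56. Interferon genes were far below shScr in all 4 hairpin libraries, from -3.10 to -2.97.

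**Figure D3:**
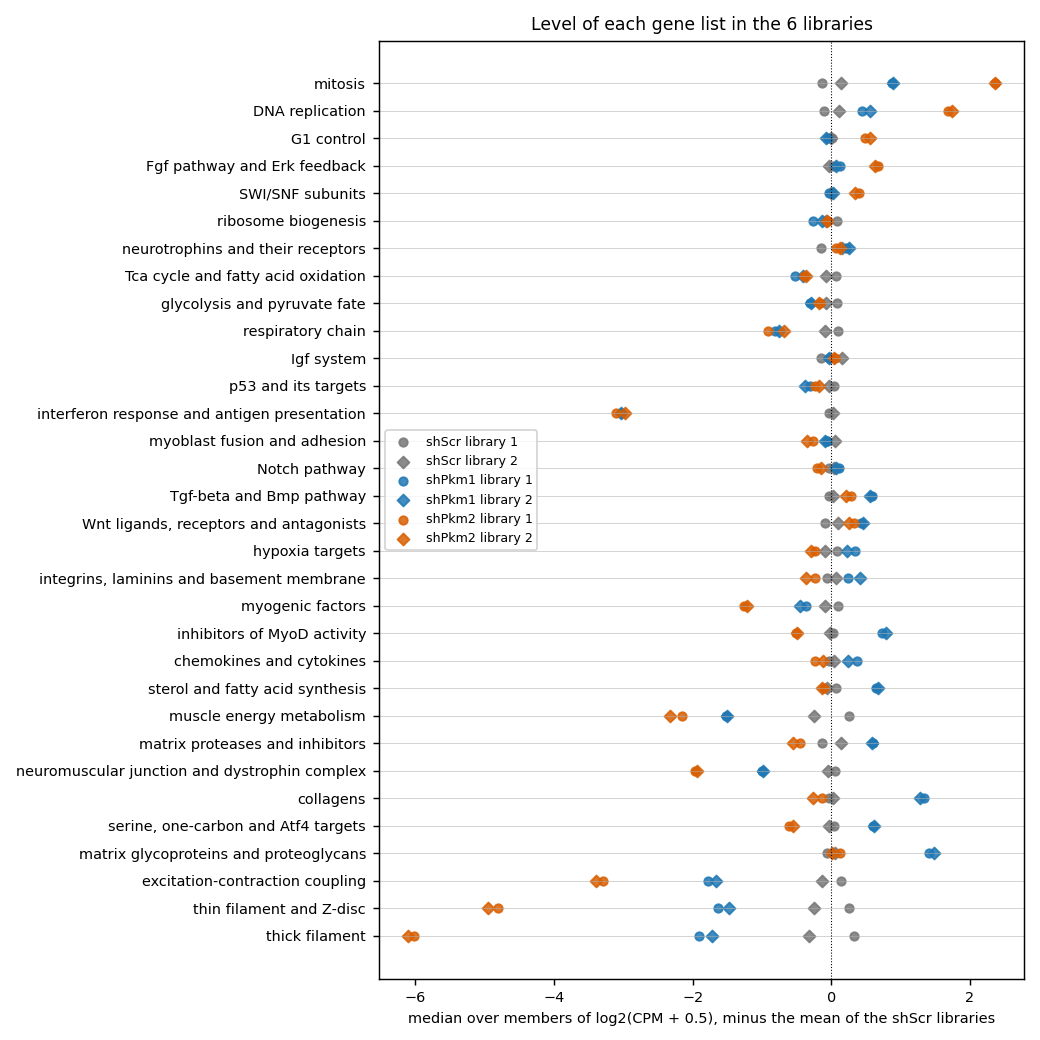
Median over the tested members of log2(CPM + 0.5), relative to the mean of the shScr libraries, for 32 lists (rows) in the 6 libraries (points). Thick filament genes run from near 0 in shScr through shPkm1 to about -6 in the libraries labelled shPkm2, collagens stand apart in shPkm1, and interferon genes lie near -3 in both hairpin groups.

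The identity of the cells was checked on marker lists. The myoblast markers Myod1, Des, Cdh15 and Itga7 were present in all 6 libraries, with Des, the muscle intermediate filament desmin, at 3302 and 3741 CPM in shPkm1 and 1180.0 and 1119 CPM in the libraries labelled shPkm2 (-1.61). Of 8 myotube markers all 8 fell (median -5.32), and of 8 myoblast markers 4 fell and 3 rose (median -0.47). None of the 5 endothelial or 4 epithelial markers had enough counts to be tested, and their summed levels were at most 1.19 CPM in any library. Of 3 tested immune markers 2 fell and 1 did not pass the test, with summed levels of 4.63 and 3.94 CPM in shPkm1, 1.98 and 2.58 CPM under the shPkm2 label and 1.14 and 1.98 CPM in shScr. Those that fell, Lyz2 with 16 and 15 counts in shPkm1 against 1 and 0, and Csf1r with 32 and 32 against 2 and 5, are named here after their values were seen. Of 4 tested adipocyte markers 2 rose, Lpl (1.77) and Plin4 (1.55), and 1 fell, Pparg (-0.58, adjusted p 0.046), whose call was lost when any hairpin library was left out (adjusted p 0.0764 to 0.268), with DESeq2 (0.166), with library totals alone (0.122) and with a replicate block (0.0543). Cebpa, an adipocyte factor named here after its values were seen, at 24.1 and 27.3 CPM against 25.9 and 23.0 CPM, did not pass the test (-0.07, adjusted p 0.63), and Adipoq and Plin1 had at most 1 count. Of 5 tested osteoblast markers 1 rose, Phex (2.07), and none fell. Runx2, the defining factor of bone cells, was at 44.1 and 38.1 CPM against 43.9 and 39.0 CPM (0.01, adjusted p 0.953). Of 3 tested cartilage markers 1 rose, Sox9 (1.11, from 33.5 and 34.9 to 78.0 and 70.0 CPM), and none fell, while Acan and Matn1 had at most 1 count.

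Genes of some chromosomes moved together, a pattern chosen after the values were seen. Over the 10959 genes whose mean reached 50 counts the median log2 fold change was 0.02. For the 645 on chromosome 1 it was -0.37, between -0.38 and -0.33 in the 4 pairs of libraries, with 54.6% of genes lower and 11.9% higher. For the 541 on chromosome 10 it was 0.29 (0.28 to 0.30 in the pairs of libraries), with 49.2% higher and 14.2% lower. The medians against shScr were 0.35 in shPkm1 against 0.02 in the libraries labelled shPkm2 for chromosome 1, and -0.22 and 0.10 for chromosome 10, 2 comparisons that share the shScr libraries. Within chromosome 8, the 114 genes between 80 and 100 Mb (GRCm38.p6) had a median of -0.66 with 82.5% lower and 4.39% higher, between neighbouring stretches at 0.01 (60 to 80 Mb) and 0.32 (100 to 120 Mb). Without genes of chromosomes 1 and 10, 51.8% of 11276 genes were called, and the medians of the thick filament, mitosis, DNA replication and matrix glycoprotein lists were those given above. Other medians moved: that of integrins, laminins and basement membrane from -0.63 to -0.40, of matrix proteases from -1.08 to -0.89, of collagens from -1.21 to -1.09, of serine and Atf4 targets from -1.23 to -1.51, of MyoD inhibitors from -0.69 to -0.97 and of myogenic factors from -0.66 to -0.85. The neuromuscular and dystrophin list moved from -1.17 to -1.30, the Wnt list from -0.36 to -0.25 and the fusion list from -0.10 to -0.03. The median of the Igf list moved most, as given above. The cause of the pattern was not tested.

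**Figure D4:**
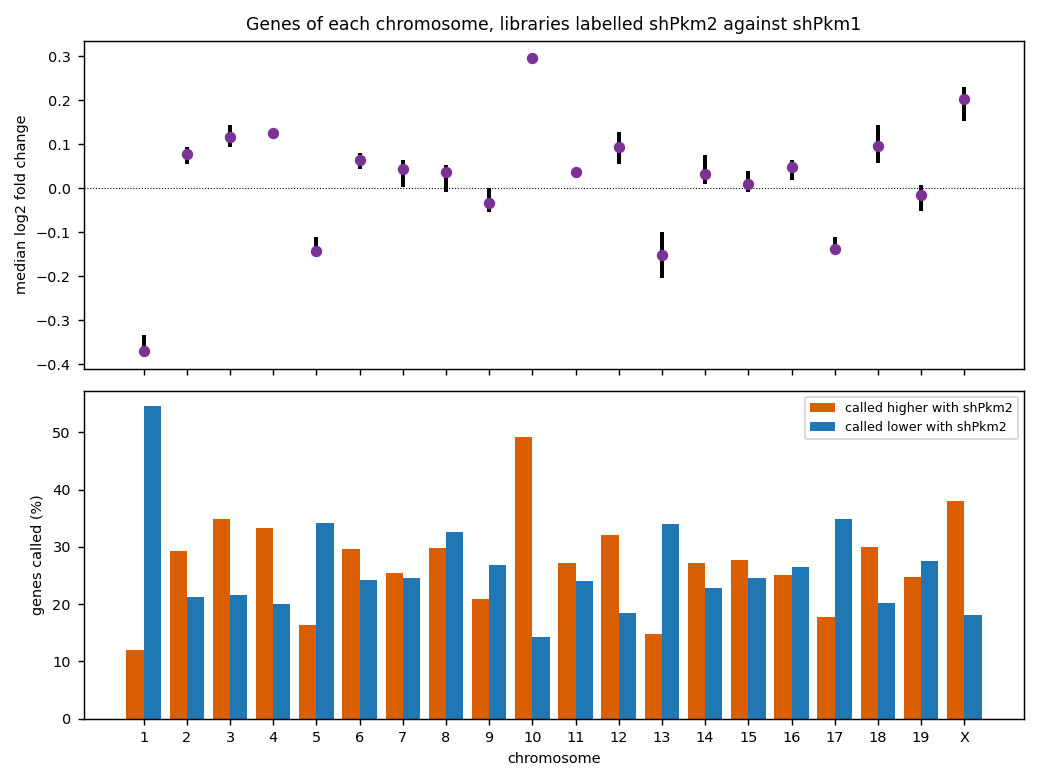
Upper panel, median log2 fold change of the genes of each chromosome (points) with the range over the 4 pairs of libraries (lines, hidden where shorter than the point); lower panel, share of genes called higher or lower in the libraries labelled shPkm2. Chromosome 1 lies lowest, at -0.37, and chromosome 10 highest, at 0.29.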

How the data were processed

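The 6 libraries, 2 per group, were sequenced from RNA of C2C12 cells. The authors deposited 1 table of 57920 transcripts with estimated counts, TPM (scaled to a fixed total per library) and FPKM (scaled by length and depth) for each library, per the file headers. HISAT, StringTie, Bowtie, RSEM, DESeq2 and the build mm10 are named in the submitters' processing notes, and their roles are not given in the sources used here. The deposited estimated counts are not whole, and how reads shared by isoforms or near-identical genes were divided can change them. The deposited FPKM and 9 columns of group means were not used, and the deposited TPM served only to choose abundant members.

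The estimated counts of a gene's transcripts were added for 17558 genes (113 had no symbol), rounded, filtered with filterByExpr (minimum count 10, total 15), which kept 12643 genes, and scaled by TMM. The test was edgeR 4.0.16 (R 4.3.3) quasi-likelihood with 1 mean per group over all 6 libraries, so shScr shared in the estimate of spread, and Benjamini-Hochberg adjustment at 0.05 over all genes. Isoforms were fitted likewise over 33433 transcripts. A floor of 3 counts over the group stood for groups without counts, and ratios with 1 to 3 counts in a group have exact 95% counting intervals.

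The libraries compared, the 32 gene lists and the 12 marker lists were chosen with earlier results of these data known. Genes were named by a fixed rule. It took Pkm, Myod1, Myog, Mymk and Mki67, and the 15 largest called rises and falls with a mean of at least 50 counts and groups that did not overlap. Predicted or clone names (LOC, Gm with digits, ending in Rik, or a number) were left out of these largest changes. Per list it took up to 3 called rises and 3 called falls with a mean of at least 20 counts and the 2 members of highest TPM. Of these 265 genes the text describes a selection. In data simulated for the same comparison with the shPkm1 means of 12284 genes, 94 of 100 genes changed by 1 on the log2 scale and 60 of 100 changed by 0.5 were called, with 7 of 12084 unchanged genes. The simulation gave all genes 1 common spread, changed few genes and only those expected at 20 counts or more. The real data differ in these points, so the shares called there may differ. Alternatives were other scalings and filters, DESeq2 1.42.0, the 4 hairpin libraries alone, the replicate number as a block, and each library left out. Chromosomes and promoters came from RefSeq tables of GRCm38.p6.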

Additional observations from a re-analysis of the deposited data

How the results depend on the processing

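With 2 libraries per group from cultures not said to be separate, the precision of every value rests on 4 libraries and a shared estimate of spread, and genes with few counts have wide errors. The 6703 calls became 5751 with DESeq2, 6979 with library totals alone, 6735 without a filter, 5900 with a mean of at least 50 counts, 7831 with the 4 hairpin libraries alone, and 4939 to 7987 as single libraries were left out. Of the counts of calls and isoform results under all these alternatives, 489 kept their direction, side of the threshold or size, 16 counts moved by over 1.5 times and 5 values lost their call. Falls among neurotrophins, 4 in the main analysis, numbered 2 with a mean of at least 50 counts, 2 with DESeq2 and 1 to 5 as single libraries were left out. Falls among chemokines numbered 11 with a mean of at least 50 counts, and falls in the respiratory chain 9 with library totals alone and 4 to 24 as single libraries were left out. Rises in ribosome biogenesis ran from 7 to 17 and those in the Tca cycle list from 7 to 14 over the same omissions. Library totals alone turned the medians of the fusion list to 0.0272, of p53 targets to 0.0845 of interferon genes to 0.0276, of glycolysis to 0.119, of the respiratory chain to 0.105 and of the Igf list to 0.105. A mean of at least 50 counts turned glycolysis to 0.0347. As single libraries were left out, the medians of 4 lists crossed 0: p53 targets (-0.0756 to 0.0238), the respiratory chain (-0.154 to 0.0626), the Igf list (-0.114 to 0.0441) and glycolysis (-0.0313 to 0.0183). The causes were not tested. The Pkm2 isoform difference ran from 0.84 to 1.06 as single hairpin libraries were left out.

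Libraries with the same replicate number did not deviate together (correlations of -0.026, 0.042 and 0.053 over the pairs of groups), so the numbers give no pairing. With the replicate block there were 6682 calls, and the Pkm2 isoform stood at 0.94 (adjusted p 0.0612, edgeR). Among the 265 named genes 3 lost their call under the block, 8 with DESeq2, 6 with library totals alone, 17 and 21 without the first or second shPkm1 library, and 19 and 11 without the first or second library labelled shPkm2.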

Other observations

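Imprinted genes, which are expressed from 1 parental copy and of which several control growth, were examined after Cdkn1c had been seen among the largest falls. Of 32 listed, 20 were tested, and 6 rose and 8 fell in the libraries labelled shPkm2, with a median log2 fold change of -0.10 (edgeR). Among all genes 53% were called, and the list was drawn up after values were seen, so no test was made of it. Mest, a hydrolase-like protein, stood at 52.1 and 52.9 CPM in shPkm1 and 0.471 and 0.334 CPM in the libraries labelled shPkm2 (-7.00), and at 0.951 and 1.69 CPM in shScr. Igf2, the fetal growth factor, was at 205 and 179 CPM against 23.4 and 24.3 CPM (-3.01), and at 1431 and 660.3 CPM in shScr. Both genes were lowest in the libraries labelled shPkm2, but Mest was highest in shPkm1 and Igf2 in shScr. In the other direction Peg3, a zinc finger protein, was at 111 and 97.9 CPM in shPkm1 and 444 and 401 CPM in the libraries labelled shPkm2 (2.02), with its neighbours Zim1 (2.42) and Usp29 (2.42). Plagl1, a zinc finger protein that limits growth, also rose (2.32), from 0.373 and 0.303 to 1.88 and 1.53 CPM. Ndn, which encodes necdin, rose from 0.213 and 0.152 to 0.753 and 1.15 CPM (2.34). Both were higher still in shScr, at 5.07 and 2.26 CPM for Plagl1 and 1.90 and 1.24 CPM for Ndn. Usp29 was likewise low in shPkm1, at 0.213 and 0.202 CPM, so these 3 values rest on few counts.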
